A study of Homo sapiens with 4 samples.

Results

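The ribosomal protein genes of HUT78 cells were compared with and without the compound CSH71. HUT78 is a long-established cell line from a patient with T-cell lymphoma of the skin. Members were chosen by name. Cytosolic ribosomal proteins were the genes whose symbol is RPL or RPS with a number, an optional A, X or L and optional further digits. RPLP0, RPLP1 and RPLP2 also fell under the rule, but 0 of these were measured. Mitochondrial ones were those whose symbol starts with MRPL or MRPS and a number. Genes without a symbol in the platform annotation could not enter, so the cytosolic set is incomplete. The rule found 130 of the 14884 genes measured, 52 cytosolic and 78 mitochondrial. Of the latter, 73 encode proteins and 5 are antisense RNAs or pseudogenes that carry such a symbol, which are described apart. The 125 protein-coding members are the subject of the counts below.

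The study had 2 untreated samples and 2 samples treated with CSH71 at 250 nM for 30 h, each on a single array of total RNA. All 4 came from the same line in the same serum-containing medium, and the titles mark the treated samples as CSH71 (NCI). The series presents CSH71 as a chemical against the lipid-binding part of p38γ, a mitogen-activated protein kinase. The labels leave unstated whether duplicates came from different cultures. P-values therefore weigh the groups against a spread that may be technical only.

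A ribosome is built of a small and a large subunit, each an RNA core dressed with many proteins. The cytosolic ribosome translates nuclear-encoded messages, and its proteins are made in balanced amounts. Their messages typically begin with a cytosine and a tract of pyrimidines, the 5′ terminal oligopyrimidine or TOP motif, through which mTOR signalling controls their translation. The mitochondrial ribosome is a separate particle that translates the few messages of the mitochondrial genome, yet all of its proteins are encoded in the nucleus and imported. Dividing cells must make both particles anew in each cycle.

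The HUT78 label was checked against 10 T-cell markers, of which 5 were measured. CD5, the T-cell surface receptor of that name, had intensities of 1729 and 1802 untreated and 2100 and 1986 treated, and CD247, the zeta chain of the T-cell receptor, had 1415 and 1144 untreated and 1020 and 1044 treated. CD2, a T-cell adhesion molecule, was dim at 60.9 to 91.6. Summed over the 5, the intensities were 3548 to 3706 untreated and 3564 to 3728 treated. The summed intensities of 6 monocyte markers were 525 to 694 and 532 to 623, those of 2 measured B-cell markers 360 to 503 and 328 to 454, and those of 4 fibroblast and epithelial markers 2652 to 2777 and 2546 to 2869. In the last list EPCAM, an epithelial adhesion molecule, was bright at 1943 to 2169, and the keratin KRT18, at 467 to 576, lay above CD4. KRT8 was at 90.9 to 119 and DCN at 19.2 to 42.9. These values alone do not decide the label. No measured marker was listed at 0 on any array. The values have no background level, so absence is not stated for any gene, and in bulk RNA fewer cells of a type cannot be told apart from less RNA per cell.

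No ribosomal protein gene of either compartment passed the test for a difference between treated and untreated cells. Of the 52 cytosolic genes 0 were called, and of the 73 mitochondrial genes 0 were called, where 0.047% of all genes were called (limma, Benjamini-Hochberg adjusted p under 0.05 over 14884 genes). At an unadjusted p under 0.05 there was 1 cytosolic and 0 mitochondrial genes, against 5.1% of all genes. With a variance prior that follows intensity, an alternative fit, the same threshold was passed by 6 cytosolic (11.5%; 2 positive and 4 negative) and 8 mitochondrial genes (11.0%; 8 negative), against 5.89% of all genes and 6.93% without the dimmest 40%. The order of members and background thus depends on the prior, and 0 members were called with either. The 95% interval of the log2 fold change lay inside a 2-fold rise or fall for 50 of 52 cytosolic and 73 of 73 mitochondrial genes, as it did for 93.7% of all genes. The exceptions were RPL37A and RPL10L. The smallest adjusted p was 0.928 among cytosolic and 0.999 among mitochondrial members, and the fold changes that follow are therefore given as values with intervals.

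Among cytosolic genes the highest fold change belonged to RPL37A, a zinc-finger protein of the large subunit. Its intensity was 185 and 213 in untreated replicates 1 and 2, and 366 and 300 in CSH71 replicates 1 and 2. Mean intensities of the cytosolic genes had a median of 2314, so this probe set was dim among them. The probe sets of RPL28, RPS7 and RPL32, described below, were dim among them too. Both treated arrays lay above both untreated arrays. The log2 fold change was 0.69 ± 0.19 (SE, 95% interval 0.25 to 1.14). RPL37A was the single member with an unadjusted p under 0.05 in the reported fit, where limma's adjusted p was 0.928. Leaving out each array in turn gave 0.56 to 0.83.

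RPL28, a large-subunit protein, had intensities of 202 and 238 untreated and 311 and 240 treated. The second treated array lay just above the second untreated one, so the groups separated narrowly, at a log2 fold change of 0.30 (95% interval -0.17 to 0.77), which was 0.12 without CSH71 replicate 1 and 0.47 without CSH71 replicate 2. RPL39, a short protein that lines the exit tunnel of the large subunit, was at 1504 and 1495 untreated and at 1682 and 1735 treated. Here the duplicates lay close together and the groups did not overlap, with a log2 fold change of 0.19 (-0.20 to 0.58), and the gene's other probe set gave 0.13. RPL34, also of the large subunit, was at 2172 and 2687 untreated and 2696 and 2760 treated, where untreated replicate 1 was the array that stood low. Its log2 fold change of 0.17 was 0.022 without that array and 0.33 without untreated replicate 2. RPS7, a small-subunit protein linked to Diamond-Blackfan anaemia, was at 191 and 210 against 214 and 221, a log2 fold change of 0.11 that was 0.046 without untreated replicate 1 and 0.17 without untreated replicate 2. RPL10A, which forms the L1 stalk, had overlapping groups and a log2 fold change of 0.05, which was 0.012 without CSH71 replicate 2 and 0.092 without CSH71 replicate 1.

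The lowest fold change belonged to RPL10L, a retrogene copy of RPL10 known from testis. Its intensity was 63.6 and 32.2 untreated and 28.7 and 24.1 treated. It was the dimmest cytosolic member, and untreated replicate 1 alone lay far above the other arrays. The log2 fold change was -0.55 ± 0.26 (95% interval -1.16 to 0.06), and leaving out each array in turn gave -0.91 to -0.19. RPL32, of the large subunit, was at 211 and 285 untreated and 209 and 196 treated, with untreated replicate 2 standing high. Its log2 fold change of -0.26 was -0.059 without that array and -0.46 without untreated replicate 1. RPS19, the gene most often mutated in Diamond-Blackfan anaemia, had intensities of 5572 and 5360 untreated and 4967 and 4714 treated. Its groups did not overlap, and its log2 fold change was -0.17 (-0.57 to 0.22). RPS24 and RPS15A, of the small subunit, had overlapping groups at -0.17 each. RPS24 was at -0.017 without untreated replicate 2 and -0.33 without untreated replicate 1, and RPS15A at 0.0084 without CSH71 replicate 2 and -0.35 without CSH71 replicate 1.

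**Figure D1:**
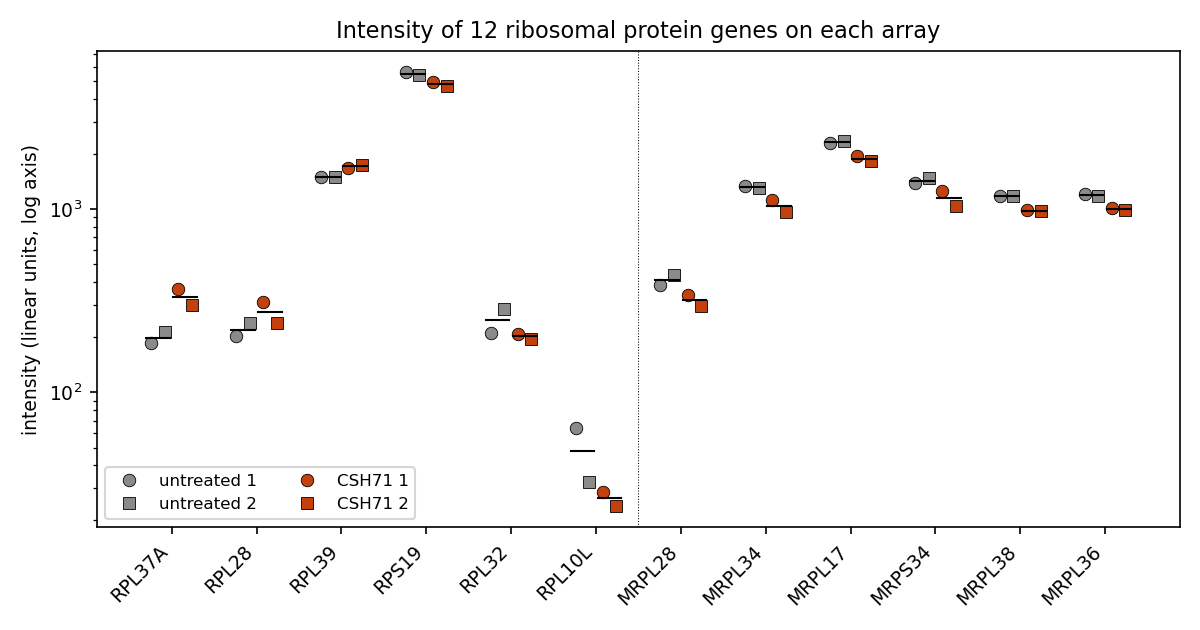
Intensity (linear units on a log axis) of 12 ribosomal protein genes on each of the 4 arrays, cytosolic left and mitochondrial right of the dotted line. Grey points are untreated, orange points CSH71, circles replicate 1, squares replicate 2 and bars the mean of 2 arrays. RPL37A, RPL28 and RPL39 lie higher on the treated arrays, and the other 9 genes lie lower.

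The start regions of these genes show the feature for which their messages are known, and they are printed for 6 of the cytosolic genes above that carry it, followed by RPL32 and RPL10L, whose listed starts do not. Each run covers 30 bases before the start and 20 from the start onward, from RefSeq, build GRCh38.p14, 5′ to 3′ on the gene's strand. Capitals mark the start base and the pyrimidines that follow it without a break, or the start base alone where it is a purine.
RPL37A, chr2:216498814-216498863, plus strand: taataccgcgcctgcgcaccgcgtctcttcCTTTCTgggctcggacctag
RPL28, chr19:55385902-55385951, plus strand: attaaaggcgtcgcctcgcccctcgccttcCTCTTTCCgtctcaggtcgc
RPL39, chrX:119791611-119791660, minus strand: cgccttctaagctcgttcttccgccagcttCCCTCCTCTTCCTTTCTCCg
RPL34, chr4:108620546-108620595, plus strand: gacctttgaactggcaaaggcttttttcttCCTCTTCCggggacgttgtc
RPS19, chr19:41860225-41860274, plus strand: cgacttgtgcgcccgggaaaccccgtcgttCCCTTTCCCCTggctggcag
RPS24, chr10:78033833-78033882, plus strand: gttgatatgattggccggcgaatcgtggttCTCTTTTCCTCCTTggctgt
RPL32, chr3:12841546-12841595, minus strand: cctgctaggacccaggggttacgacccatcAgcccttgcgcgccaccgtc
RPL10L, chr14:46651762-46651811, minus strand: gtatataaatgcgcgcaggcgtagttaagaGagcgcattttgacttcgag

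The pyrimidine runs were 6 bases long in RPL37A, 8 in RPL28 and RPL34, 11 in RPS19, 14 in RPS24 and 19 in RPL39. Among them RPL37A and RPL39 had positive and RPS19 negative fold changes, but the printed genes were taken from both directions. The lowest cytosolic fold changes, of RPL10L and RPL32, belonged to genes whose listed starts lack such a run. These 2 values leaned on 1 array each: RPL10L was at -0.19 without untreated replicate 1, and RPL32 at -0.059 without untreated replicate 2. Values by start over the compartment are given below. Of the 52 cytosolic genes, 47 had a start in the sequence table. A start of C followed by at least 4 pyrimidines was found in 29 of them (61.7%), in 5 of 65 mitochondrial genes (7.69%) and in 498 of 10749 genes tested (4.63%). With the run allowed to begin up to 10 bases to either side, the counts were 39 of 47, 21 of 65 and 3666 of 10749. The first base was C in 66.0% of cytosolic, 10.8% of mitochondrial and 11.6% of all genes. The first start listed for each gene was used, and a start in RefSeq need not be the one used in HUT78 cells.

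Cytosolic genes with the C and pyrimidine start had a median log2 fold change of -0.03 (29 genes, 21 negative), and those without it -0.04 (18 genes, 10 negative). The difference between these medians was not tested.

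Taken as a compartment, the cytosolic genes had a median log2 fold change of -0.04, with the middle 50% between -0.11 and 0.03. The median of all genes was -0.01. Of the 52, 17 were positive and 35 negative (67.3% negative, against 52.0% of all genes). The bright genes of these arrays leaned the same way: with the dimmest 40% left out, 56.8% of 8930 genes were negative and their median was -0.03. The 18 small-subunit genes had a median of -0.04 and the 34 large-subunit genes -0.04. Without the 7 paralogues described below, the remaining 45 genes had a median of -0.025, with 29 negative (64.4%). The median of the genes without the dimmest 40% was -0.028.

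Treated and untreated arrays did not overlap for 22 cytosolic genes, 5 higher with CSH71 (against 15.0% of all genes) and 17 lower (32.7%, against 16.6% of all genes and 19.4% without the dimmest 40%). The 5 were RPL37A, RPL28, RPL39, RPL34 and RPS7. The 17 ran from RPL10L at -0.55 to RPL8, a protein near the catalytic centre, at -0.05, and included RPL32, RPS19, RPL39L, and the structural proteins RPS9 at -0.15 and RPL18 at -0.13.

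**Figure D2:**
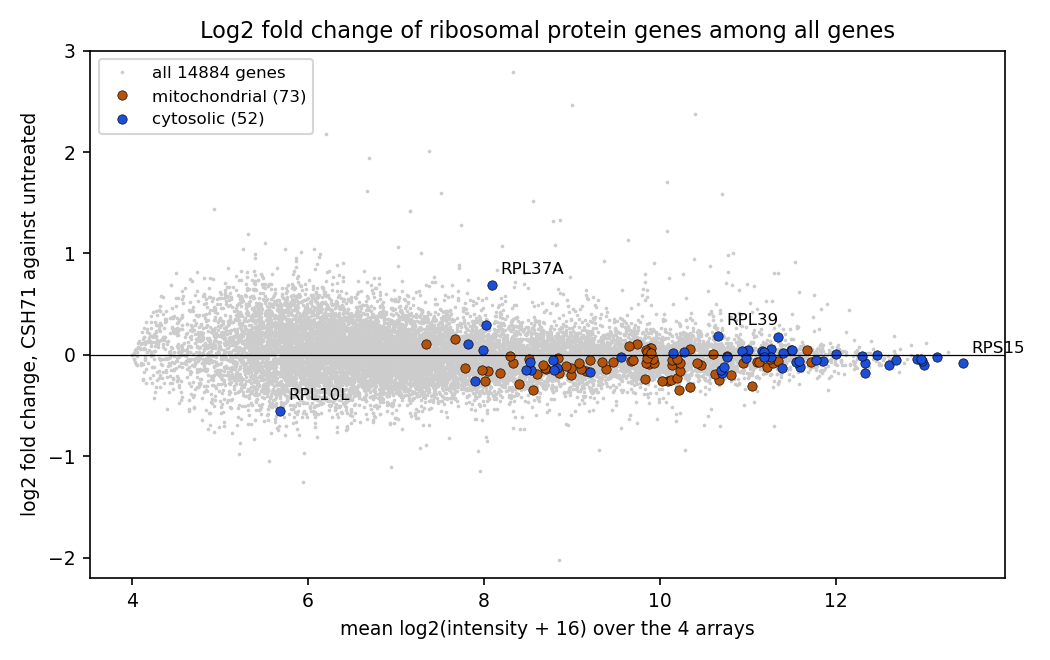
Log2 fold change of CSH71 against untreated cells (vertical axis) by mean log2(intensity + 16) over the 4 arrays (horizontal axis), for 52 cytosolic genes in blue, 73 mitochondrial genes in brown and all 14884 genes in grey. Apart from RPL37A at 0.69 and RPL10L at -0.55, the cytosolic points lie within 0.30 of 0, and the mitochondrial points lie between -0.35 and 0.16.

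The spread of the cytosolic genes over the 4 arrays is given here without a comparison to other genes of like brightness. The ratio of the highest to the lowest array had a median of 1.16 and was under 1.1 for 16 genes. The steadiest was RPL41, which encodes a very short basic peptide of the large subunit, with intensities of 9169 and 9002 untreated and 9016 and 8921 treated, a ratio of 1.03. Its 5 probe sets gave log2 fold changes from -0.12 to 0.03. RPL24 followed at a ratio of 1.05. The widest were RPL10L at 2.64 and RPL37A at 1.98. RPS15, the brightest member, was at 11346 and 11507 untreated and 10387 and 11250 treated. RPS6, the small-subunit protein phosphorylated by S6 kinase downstream of mTOR, was at 1912 and 2123 untreated and 2002 and 1953 treated, with both treated values inside the untreated range and a log2 fold change of -0.03 (-0.43 to 0.37).

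Several cytosolic proteins have a paralogue encoded by a second gene. The 7 measured paralogues had a median log2 fold change of -0.13, with 6 negative and 1 positive. RPL39L, a copy of RPL39 known from testis, was at 368 and 381 untreated and 335 and 335 treated (log2 fold change -0.15, 95% interval -0.54 to 0.24). Its groups did not overlap, in the direction opposite to RPL39. RPS27L, a p53-induced relative of RPS27, was at 446 and 477 against 439 and 401 (-0.13, and -0.067 without CSH71 replicate 2), while RPS27 itself was at -0.04. RPL10, whose copy RPL10L is described above, was at 6247 and 6572 untreated and 5904 and 6021 treated (-0.10, and -0.067 without untreated replicate 2).

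RPL22L1, the relative of RPL22, was at -0.05 and RPL22 at 0.03. RPL26L1 was at -0.07, and RPL26 at -0.0029 in the reported fit, at 0.04 after quantile normalization and at 0.02 after median centring. RPL7L1 was at 0.05, and RPL3L, a paralogue of RPL3 known from muscle, was at -0.15 with overlapping groups. For 5 pairs the log2 ratio of paralogue to parent was compared between treated and untreated arrays. The differences were -0.45 for RPL10L and RPL10, -0.34 for RPL39L and RPL39, -0.09 each for RPL22L1 with RPL22 and RPS27L with RPS27, and -0.07 for RPL26L1 with RPL26. The RPL39 pair alone had ratios that did not overlap. The exact permutation test, 2-sided, gave 0.333 for that pair, the smallest p that 2 against 2 allows, and 0.667 to 1 for the others (adjusted over the 5 pairs, 0.833 to 1).

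Of 17 listed genes of Diamond-Blackfan anaemia 13 were measured, with a median log2 fold change of -0.04. Of the 13, 3 were positive and 10 negative (76.9%, against 67.3% of the 52 cytosolic genes). None was called, where 0.047% of all genes were. Of 15 listed proteins that bind MDM2, the ubiquitin ligase of p53, 9 were measured, with a median of -0.02. Of the 9, 2 were positive and 7 negative (77.8%, against the same 67.3%), and 0 were called. The lists share members such as RPS7 and RPL11. Of the 3 proteins of the acidic stalk, 0 were measured.

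The mitochondrial genes with the lowest fold changes were MRPL28 and MRPL34, both of the large subunit. MRPL28 had intensities of 384 and 436 untreated and 341 and 296 treated, and MRPL34 had 1344 and 1298 untreated and 1123 and 959 treated. In both genes the second treated array was the lowest and the groups did not overlap. The log2 fold changes were -0.35 ± 0.18 (95% interval -0.77 to 0.07) and -0.34 ± 0.18 (-0.76 to 0.07), with a limma adjusted p of 0.999 each.

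MRPL17, which sits near the exit tunnel, was at 2305 and 2365 untreated and 1951 and 1819 treated. Its log2 fold change was -0.31 (-0.70 to 0.09), and limma's adjusted p was 0.0577 with the prior that follows intensity. MRPS34, a small-subunit protein without a bacterial counterpart and mutated in Leigh syndrome, was at 1389 and 1474 untreated and 1261 and 1043 treated (-0.32, and -0.18 without CSH71 replicate 2). MRPL38, of the central protuberance, was at 1174 and 1172 untreated and 983 and 978 treated. The duplicates of MRPL38 lay closer together than those of the other genes in this group, and its log2 fold change was -0.25 (-0.64 to 0.14). Leaving out each array in turn gave -0.26 to -0.25 for MRPL38. MRPL36, a small zinc-binding protein, was at 1212 and 1184 untreated and 1011 and 994 treated (-0.25).

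In the other direction the values were smaller. MRPL52 was at 172 and 183 untreated and 236 and 169 treated, so that CSH71 replicate 1 alone stood high (log2 fold change 0.16, 95% interval -0.33 to 0.64). Without that array the value was -0.07. MRPS16, of the small subunit, was at 758 and 864 untreated and 875 and 868 treated, and MRPS22, also of the small subunit, at 792 and 729 against 806 and 807. These 2 were the mitochondrial genes whose treated arrays both lay above both untreated arrays, at log2 fold changes of 0.10 and 0.08 (against 15.0% of all genes that separated this way). MRPS16 was at 0.012 without untreated replicate 1 and 0.20 without untreated replicate 2, and MRPS22 at 0.14 and 0.025 without the same arrays. MRPL55 at 0.11 (0.043 without CSH71 replicate 1), MRPL50 at 0.07 (0.015 without untreated replicate 1) and MRPS35 at 0.07 had overlapping groups.

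**Figure D3:**
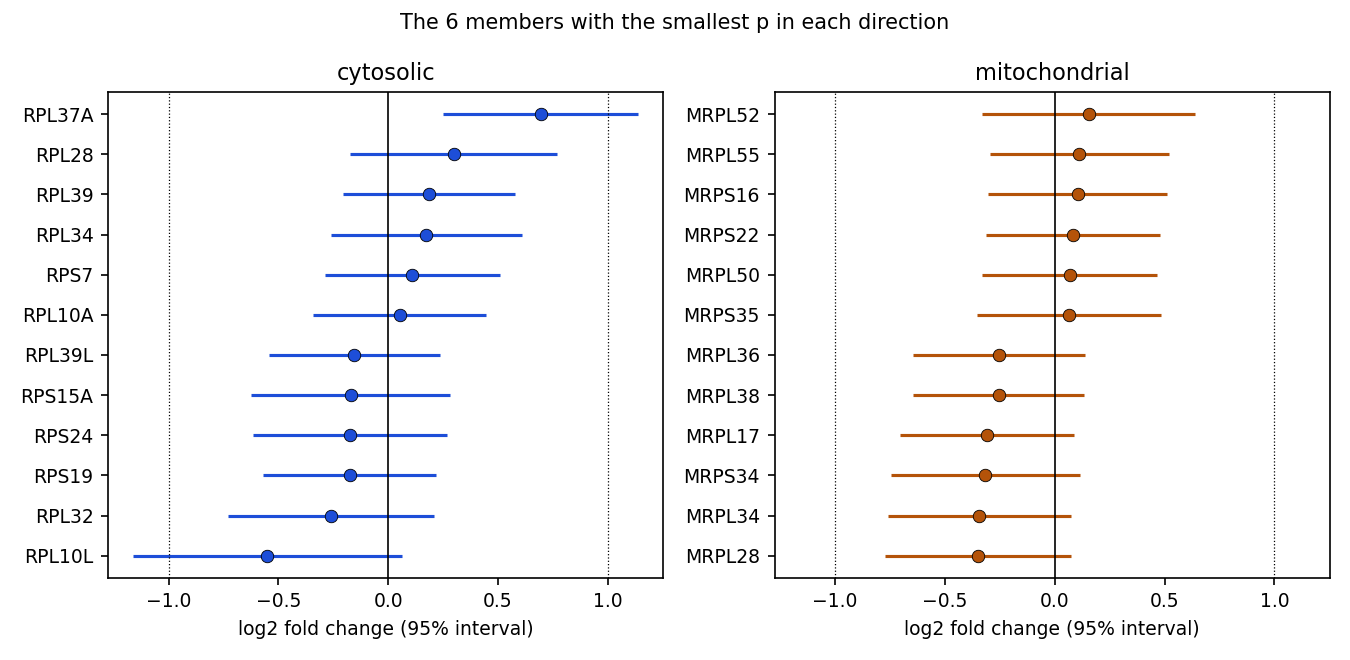
Log2 fold change (points) with its 95% interval (lines) for the 6 members with the smallest p in each direction, cytosolic left and mitochondrial right. Dotted lines mark a 2-fold change. Every interval includes 0 except that of RPL37A, and those of RPL37A and RPL10L alone extend past a dotted line.

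Other roles within the mitochondrial ribosome gave the following values. MRPL10 and MRPL11, at the base of the stalk that recruits translation factors, were at -0.05 and -0.09 with overlapping groups. MRPS18A and MRPS18B, variant versions of the same bacterial protein, were at -0.06 and -0.23, the latter at -0.13 without untreated replicate 2. The 7 probe sets of MRPS18B held the same fold change. MRPL41, reported to act in apoptosis, was at 248 and 285 untreated and 235 and 204 treated (-0.26, 95% interval -0.69 to 0.17, and -0.16 without CSH71 replicate 2), while MRPL37, on the same list, was at -0.08. Of 14 listed genes of inherited mitochondrial translation disease 12 were measured, with a median of -0.08, 3 positive and 9 negative and 0 called, MRPS34 and MRPS14 among them. MRPS14 was at -0.17, at -0.0066 without CSH71 replicate 2 and at -0.34 without CSH71 replicate 1. MRPL3, the brightest member, was at 3392 and 3487 untreated and 3171 and 3383 treated (-0.07, and -0.024 without CSH71 replicate 1). MRPL44, an RNase III-like protein of the large subunit, had a log2 fold change of -0.03 from its brighter probe set and 0.42 from the other, so its direction depends on the probe set.

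Promoters of mitochondrial members differ from those of cytosolic ones at the start, as MRPL34 and MRPL36 show in the same window of 30 bases before the start and 20 from it.
MRPL34, chr19:17292543-17292592, plus strand: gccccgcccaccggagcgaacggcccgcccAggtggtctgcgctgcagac
MRPL36, chr5:1799818-1799867, minus strand: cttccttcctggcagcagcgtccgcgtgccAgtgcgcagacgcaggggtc
Letters bound by 3 factors known for nuclear genes of mitochondrial function were searched on both strands of 300 bases around each start. They are CCGGAAG for GABP, AANATGGC for YY1 and GCGCANGC for NRF1, and matches of different motifs may overlap. The following 3 genes show such matches in capitals, in a window of 100 bases before the start and 20 from it.
MRPS34, GABP, chr16:1773115-1773234, minus strand: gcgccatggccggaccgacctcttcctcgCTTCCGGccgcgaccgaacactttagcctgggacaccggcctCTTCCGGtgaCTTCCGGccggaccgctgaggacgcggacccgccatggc
MRPL38, YY1, chr17:75904865-75904984, minus strand: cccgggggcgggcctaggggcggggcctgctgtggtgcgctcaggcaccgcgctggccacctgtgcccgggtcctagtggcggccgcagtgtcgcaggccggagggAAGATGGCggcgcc
MRPL17, NRF1, chr11:6683321-6683440, minus strand: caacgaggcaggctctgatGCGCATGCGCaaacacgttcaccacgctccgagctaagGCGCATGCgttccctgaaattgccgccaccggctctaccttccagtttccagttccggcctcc

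The GABP letters were in 28 of 65 mitochondrial starts (43.1%), 14 of 47 cytosolic ones (29.8%) and 15.0% of 10749 genes tested. The YY1 letters were in 24 (36.9%), 9 (19.1%) and 8.26%, and the NRF1 letters in 22 (33.8%), 7 (14.9%) and 17.5%. A match is a description of the letters and no measure of binding. Mitochondrial genes with and without the GABP letters each had a median log2 fold change of -0.08, and so did those with and without the YY1 letters. For the 22 genes with the NRF1 letters the median was -0.09, with 18 negative, against -0.08 for the 43 without. NRF1 was first searched in a longer form, the same letters followed by GC, and the shorter form was chosen after those values were seen. The longer form was in 8 of 65 mitochondrial starts (12.3%), 5 of 47 cytosolic ones (10.6%) and 8.79% of all, and the 8 mitochondrial genes had a median of -0.17, with 8 negative, against -0.08 for the 57 without. The value for NRF1 thus depends on the form searched, and neither difference was tested.

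As a compartment, the mitochondrial genes had a median log2 fold change of -0.08, with the middle 50% between -0.16 and -0.04. Of the 73, 13 were positive and 60 negative (82.2% negative, against 52.0% of all genes and 56.8% without the dimmest 40%). Treated arrays lay below both untreated arrays for 23 genes (31.5%, against 16.6% of all genes and 19.4% without the dimmest 40%) and above both for 2 (against 15.0% of all genes). The 48 large-subunit genes had a median of -0.08 with 43 negative, and the 25 small-subunit genes -0.08 with 17 negative. Genes numbered as counterparts of bacterial ribosomal proteins (41) and those numbered beyond them (32) each had a median of -0.08. Of the former 37 were negative (90.2%), and of the latter 23 (71.9%), a difference that was not tested. The 5 noncoding genes with a mitochondrial symbol were at 0.34 for MRPL42P5, 0.18 for MRPL23-AS1, 0.02 for MRPS31P5, -0.08 for MRPL45P2 and -0.23 for MRPL20-AS1.

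That lean came unequally from the arrays. Each gene's deviation from its own mean over the 4 arrays had a mitochondrial median of -0.02 in untreated replicate 1, 0.10 in untreated replicate 2, -0.02 in CSH71 replicate 1 and -0.09 in CSH71 replicate 2. Untreated replicate 1 and CSH71 replicate 1 were level. Between these 2 arrays 32 mitochondrial genes were lower and 41 higher in the treated one, with a median difference of 0.02. The other comparisons of a treated with an untreated array gave -0.05, -0.15 and -0.18. The untreated arrays differed from each other by 0.11, with 63 of 73 genes higher in replicate 2, which is more than the -0.08 between the groups. Genes without the dimmest 40% differed between the untreated arrays by the same 0.11. Against untreated replicate 1, these brighter genes gave 0.05 for CSH71 replicate 1 and -0.02 for CSH71 replicate 2. Against untreated replicate 2 they gave -0.04 and -0.10. The mitochondrial median was lower than theirs in each of these comparisons, and the difference was not tested. Without untreated replicate 2 the mitochondrial median was -0.02 with 44 of 73 negative. It was -0.14 without untreated replicate 1, -0.14 without CSH71 replicate 1 and -0.06 without CSH71 replicate 2.

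The cytosolic medians per array were -0.01 and 0.04 in untreated replicates 1 and 2, and -0.02 and -0.02 in CSH71 replicates 1 and 2, so untreated replicate 2 was again the highest. The untreated arrays differed by 0.06, against -0.04 between the groups. Without untreated replicate 2 the cytosolic median was -0.01, with 27 of 52 negative. Each compartment's shift was smaller than the gap between its untreated duplicates. The treated duplicates lay closer, at -0.017 for cytosolic genes (27 lower and 25 higher in replicate 2), under the shift of -0.045. For mitochondrial genes they differed by -0.082, near the shift of -0.084. A gap between single arrays spreads wider than a difference between means of 2 arrays, so these gaps do not test the shifts. The part of array-wide differences in the shifts was not tested. The medians of the compartments, -0.04 and -0.08, were not tested against each other.

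**Figure D4:**
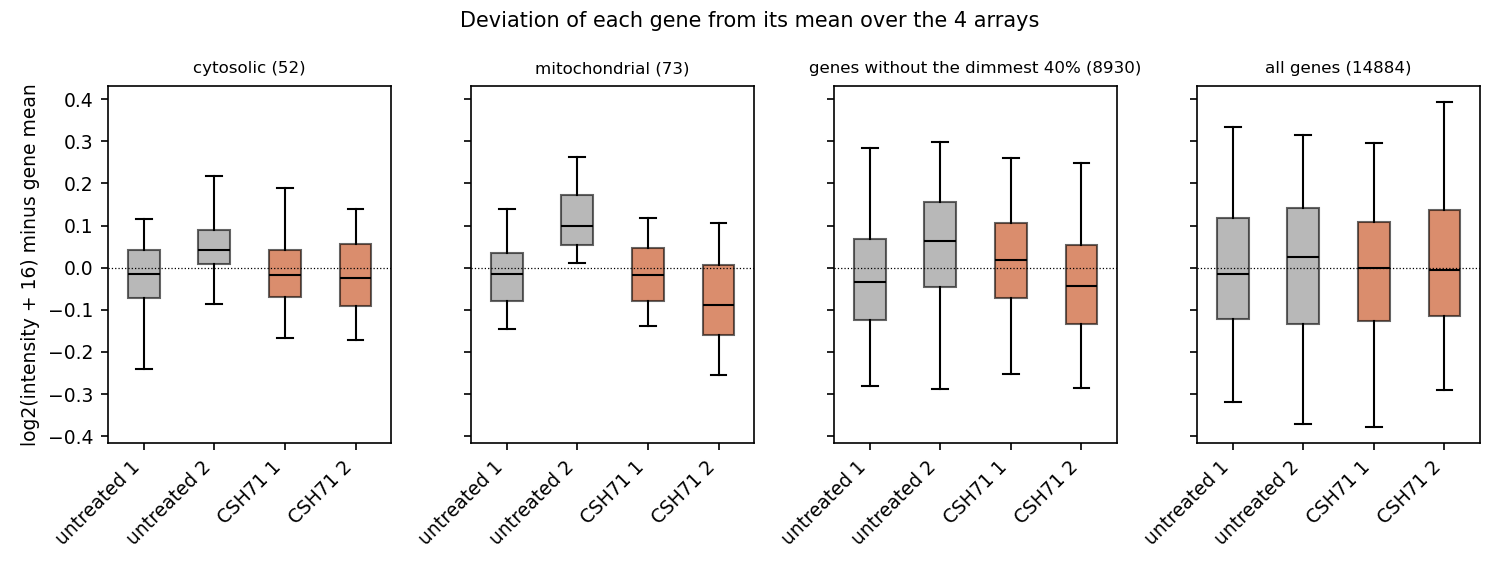
Log2(intensity + 16) minus the gene's mean over the 4 arrays, for the 52 cytosolic genes, the 73 mitochondrial genes, the 8930 genes without the dimmest 40% and all 14884 genes. Boxes show the middle 50% with the median, and whiskers the 5th to 95th percentile. Untreated replicate 2 has the highest median in all 4 panels, and CSH71 replicate 2 the lowest in the cytosolic, the mitochondrial and the brighter genes.

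Genes that work with ribosomal proteins were examined through lists. In them 0 genes were called by limma, against 0.047% of all genes, and 1 had an unadjusted p under 0.05, against 5.1%. With the prior that follows intensity, limma called 2 list genes, with positive fold changes. At an unadjusted p under 0.05 that fit had 13 list genes, against 5.89% of all genes. Fold changes were negative for 52.0% of all genes and 56.8% without the dimmest 40%. Of 2 measured ribosomal proteins outside the name rule, RPL36AL was at 2257 and 2136 untreated and 1861 and 1894 treated (log2 fold change -0.22), and FAU, which encodes a small-subunit protein fused to a ubiquitin-like one, was at -0.17. Among 18 measured initiation and elongation factors the median was 0.03, with 12 positive and 6 negative. EIF1, which guards start-codon choice, was at 2609 and 2872 untreated and 3290 and 3361 treated (0.28). EEF1D was at 0.20, EIF6, which keeps the subunits apart, at -0.13 and EIF4EBP1, a repressor of cap-dependent initiation, at -0.10.

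Among 46 measured genes of nucleolar ribosome assembly the median was -0.05, with 16 positive and 30 negative. WDR12, a factor of large-subunit assembly, was at 584 and 689 untreated and 482 and 470 treated (-0.40, 95% interval -0.82 to 0.02), and MRTO4, which holds the place of the stalk during assembly, was at -0.29. SBDS and DDX47 were at 0.16 each. Among 38 measured genes of mitochondrial translation outside the name rule the median was -0.07, with 11 positive and 27 negative. SLIRP, which stabilises mitochondrial messages, was at 1467 and 1433 untreated and 1176 and 1109 treated (-0.34), and MALSU1, an assembly factor of the mitochondrial large subunit, was at 352 and 349 against 284 and 266 (-0.33). MTERF4 and MTG1 were at 0.23 and 0.19.

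Among 16 measured regulators of ribosomal protein synthesis the median was 0.03, with 9 positive and 7 negative. MXD1, which competes with MYC for its partner MAX, was at 1363 and 1421 untreated and 1920 and 1877 treated. Its groups did not overlap and its log2 fold change was 0.44 ± 0.17 (95% interval 0.05 to 0.84), with a limma adjusted p of 0.930. TSC1, an inhibitor of mTOR signalling, was at 0.25, RHEB, its activator, at -0.19, and the transcription factor SP1 at -0.22.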

How the data were processed

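Each array's deposited table holds a linear intensity for every probe set. Affymetrix Expression Console is the software in the submitters' processing notes, while its version and its summarisation, background and normalization settings are not given there. Array medians were 71.5 to 81.1, and precision is limited by having 4 arrays. Of 53617 probe sets, 16098 had 1 symbol, 0 several and 37519 none in the platform annotation. All 16098 matched RefSeq by entrez identifier and 0 symbols changed. For each of 14884 genes the probe set with the highest mean was used, which concerned 8 members. Ribosomal proteins have many near-identical pseudogenes, and probes may share their signal.

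Values were transformed to log2(intensity + 16), which understates changes of dim genes, and compared with limma 3.58.1 (R 4.3.3, default prior, all 4 arrays, no covariate). P-values were adjusted by Benjamini-Hochberg over all genes, and intervals are at 95%. The procedure was tested on simulated data in which the spread did not follow intensity. How often it would miss a change in these data is not given. Figures used matplotlib 3.10.9. Members and lists were chosen with earlier results of these data known. Named members are the 6 with the smallest p in each direction per compartment, the brightest and dimmest, those with probe sets of opposite sign, stalk, bS18 and paralogue genes with their parents, RPS6, and the 2 with the smallest p in other role groups. In each list of partner genes they are the 2 with the smallest p in each direction. Other members are named after their values were seen, and the motif searches were added then too. Alternatives changed the constant, normalization, filter, prior, probe set, pairing and arrays.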

Additional observations from a re-analysis of the deposited data

How the results depend on the processing

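Cytosolic and mitochondrial members called stayed at 0 under every alternative run. The smallest limma adjusted p of any member over them was 0.0577, for MRPL17 with a prior that follows intensity. The number of all genes called moved from 7 to 0 with a constant of 1 and 33 with 64, 27 with the replicate block, 0 after quantile normalization, 27 after median centring, 11 without the dimmest 40% of genes and 143 with a prior that follows intensity (which also called 2 genes of the partner lists). It ran from 0 to 29 with each array left out. At an unadjusted p under 0.05, limma had 768 genes with a constant of 1, 964 after quantile normalization, 794 without untreated replicate 1 and 609 without untreated replicate 2. Same-numbered arrays deviated in opposite directions (r = -0.29 over genes), and the crossed pairing, added after seeing the data, called 0 genes (1288 unadjusted) and 0 members. The numbers are not shown to pair the samples, and the block changed no other call. With each array left out, the medians ran from -0.059 to -0.013 (cytosolic) and from -0.14 to -0.025 (mitochondrial). The medians kept their sign under all alternatives, and adding the 5 noncoding genes left the mitochondrial one at -0.08.

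Of 45 named members, none crossed the threshold, and these changed sign. MRPL44 was at 0.19 with the mean of its probe sets, RPL41 at 0.0015 after median centring, and RPL26 at 0.042 after quantile normalization and 0.017 after median centring. With each array left out, values ran from -0.35 to 0.0084 for RPS15A, -0.068 to 0.38 for MRPL52, -0.039 to 0.17 for MRPS35, -0.14 to 0.079 for MRPL44, -0.19 to 0.079 for RPL22L1, -0.23 to 0.086 for RPL26L1, -0.0042 to 0.11 for RPL7L1, -0.36 to 0.066 for RPL3L, -0.28 to 0.18 for MRPL10, -0.22 to 0.037 for MRPL11, -0.14 to 0.015 for MRPS18A, -0.20 to 0.029 for MRPL37, -0.021 to 0.088 for RPL22, -0.12 to 0.030 for RPS27, -0.063 to 0.057 for RPL26 and -0.10 to 0.048 for RPS6. The cause was not tested.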

Other observations

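Pseudogenes of cytosolic ribosomal proteins had probe sets of their own for 25 genes, which are outside the name rule. Their median log2 fold change was -0.12, with 7 positive and 18 negative (72.0%, against 52.0% of all genes). Limma called 0, against 0.047% of all genes, and 1 had an unadjusted p under 0.05, against 5.1%. Treated arrays lay below both untreated arrays for 6 (against 16.6% of all genes) and above both for 1 (against 15.0%). RPL23AP87, a pseudogene of RPL23A, had intensities of 872 and 886 untreated and 704 and 657 treated (-0.36), and RPL13AP20 had 3206 and 3037 untreated and 2518 and 2889 treated (-0.21). RPL13AP3, the one with the unadjusted p under 0.05, was dim at 45.9 and 40.8 untreated and 27.3 and 28.9 treated (-0.43). These examples were chosen after their values were seen.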
